A study of Mus musculus with 23 samples.

Results

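Murine pancreatic ductal adenocarcinoma (PDAC) cell lines were compared by their response to Rad001 (everolimus), an inhibitor of the kinase mTOR. The 23 lines with an array were divided by the Rad001 IC50, the dose that lowered viability to the midpoint in an MTT assay, at 1 µmol/L. The high IC50 group held 12 of the 23 lines (ASC-5193, PPT-16992, ASC-53909, HEP-5123, B-5123, PPT-5486, PPT-5671, PPT-15272, LN1-15272, PUL-15272, B-152727 and HEP2-53631). The low IC50 group held the other 11 (PPT-5193, PPT-3250, PPT-5320, PPT-3107, PPT-5748, PPT-6051, B-6051, PPT-17728, PPT-53631, PUL3-53631 and B-53631). The IC50 values came from viability assays and not from the arrays, and the log2 IC50 was also used as a continuous measure that spanned 4.48 doublings. No drug was given to the cells on the arrays, so all signals are those of untreated, low-passage cultures. Each line is a separate culture of tumour cells and counted as 1 replicate.

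Rad001 binds the immunophilin FKBP12, encoded by Fkbp1a, and the complex blocks mTOR in mTOR complex 1. This complex collects signals from growth factors through PI3K, AKT and the TSC proteins and from amino acids at the lysosome, and it drives cap-dependent translation, ribosome production and growth while holding back autophagy. Bez235, the second drug measured in the same lines, blocks PI3K and mTOR at their kinase sites.

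The groups differed in more than the drug response. Lines of the high group came from 8 mice, 4 of them as primary tumour lines (prefix PPT) and 8 as lines from other sites, taken as metastases. The low group also came from 8 mice, with 8 primary tumour lines and 3 from metastases. Altogether 14 mice gave the 23 lines, 5 mice gave 14 of them, and only mice 5193 and 53631 gave lines to both groups. Of the high lines, 2 were listed with a Trp53 R172H allele and 3 with none, against 4 and 4 of the low lines, and the genotype of 7 high and 3 low lines was not given in the sources used here. Cre was driven by Ptf1a (Ptf1a-Cre) in 5 high and 5 low lines and by Pdx1 (Pdx1-Cre) in 0 and 3 lines, where a driver was listed. The 95% confidence interval of the IC50 left out 1 µmol/L for 7 of the 12 high and 5 of the 11 low lines, and the intervals of the other 11 lines reached across it. The line labelled B-152727 on its array was taken as B-15272 of the IC50 list and had the highest Rad001 IC50, followed by ASC-5193.

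The arrays carried a log2 signal for each of 45037 probe sets, with array medians between 3.58 and 3.89 and an overall median of 3.76. Below, a signal whose mean lay under that median in a group is called dim. The keratins of epithelial tumour cells were strong in most lines, and Krt8 reached 13.75 in PPT-3107. ASC-5193 stood apart, with Krt8 at 3.44, Krt19 at 2.87 and the lowest mean of the 20 epithelial markers (3.13). This mean ran from 3.13 to 9.25 over the high lines and from 4.4 to 7.43 over the low lines. The adhesion protein E-cadherin (Cdh1) was low in lines of both groups, at 2.75 in ASC-5193, 3.59 in PPT-16992 and 6.48 in ASC-53909 of the high group and at 2.22 in PPT-3250, 4.81 in PPT-17728 and 5.87 in PPT-5320 of the low group, and at 10.23 or above in all others. PPT-17728 also had a low Krt8 (7.53). Defining markers of leukocytes (Ptprc), endothelium (Pecam1), acinar cells (Cpa1) and lung epithelium (Sftpc) were dim in both groups, with the highest single signals at 3.23, 2.48, 2.94 and 4.02. Albumin of hepatocytes was also dim on average, and reached 5.25 in 1 high line. The mean signal was dim for 4 of 9 leukocyte, 6 of 7 endothelial, 3 of 9 acinar and islet, 3 of 5 hepatocyte and 3 of 5 lung markers.

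The comparison of the high with the low group asked which transcripts differ between lines that need much and little Rad001. Most of the 45037 probe sets lay close to a difference of 0, and 306 differed by more than 1 on the log2 scale. None passed an adjusted p under 0.05 in limma (0 of 45037, 0%), and the smallest adjusted p was 0.9998. At an unadjusted p under 0.05, 1173 probe sets were higher and 721 lower in the high group. Counted once per gene, 512 of 18193 genes were higher (2.81%) and 261 lower (1.43%). The smallest unadjusted p-values belonged to probe sets of Chchd7 and Hcls1 that were dim in both groups. Their means were 1.59 and 2.26 in the high and 1.21 and 2.52 in the low lines. A brighter probe set of Chchd7, with a mean of 8.29 over all lines, differed by 0.46 ± 0.22 in the same direction. The genes described next are a part of the others with small unadjusted p-values. Each has an adjusted p of 0.9998, and their values are given as a description of these lines.

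Genes of several functions had higher signals in the high group. Camk2b, a subunit of a calcium- and calmodulin-dependent kinase, had a lowest, median and highest signal of 4.71, 5.50 and 6.18 in the high lines and of 4.16, 4.62 and 5.44 in the low lines. All 12 high lines lay above the median of the low lines, and 7 lay above every low line, while the other 5 overlapped with them. The difference was 0.77 ± 0.18 (standard error) on the log2 scale. Stox2, which encodes a winged-helix protein, reached 8.75 in PPT-5671, with a median of 6.08 in the high and 3.95 in the low lines, and differed by 2.0 ± 0.50. Its 5 other probe sets were dimmer and differed by 0.05 to 1.07 in the same direction.

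Ndufb6 and Ndufb7, subunits of respiratory complex I, also had higher signals, by less than 1 on the log2 scale. Ndufb6 had a median of 10.64 in the high lines (9.72 to 11.04) and of 10.08 in the low lines (8.99 to 10.42), and 9 of 12 high lines lay above every low line. Ndufb7 ran from 9.89 to 10.65 with a median of 10.13 in the high lines and from 9.31 to 10.20 with a median of 9.86 in the low lines. Their differences were 0.58 ± 0.15 and 0.36 ± 0.10, and a second probe set gave 0.52 for Ndufb6 and 0.31 for Ndufb7. Fbxl4, an F-box protein of mitochondria, was 0.47 ± 0.12 higher, and Sec61b, a subunit of the protein channel of the endoplasmic reticulum, was 0.52 ± 0.14 higher. Snapc3, part of the complex that starts small nuclear RNA genes, was 0.94 ± 0.24 higher, with the other sign in 2 dimmer probe sets (-0.17 and -0.27).

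Among the genes with lower signals was Igfbp4, which binds insulin-like growth factors outside the cell. Its signal was 3.99, 5.72 and 7.34 (lowest, median, highest) in the high lines and 6.26, 7.15 and 8.01 in the low lines. The lowest line was ASC-5193, 8 of 12 high lines lay below every low line, and 1 high line (HEP-5123) lay above the low median. The difference was -1.22 ± 0.32, and 5 further probe sets of Igfbp4, of which the brightest pair averaged over 11, gave -1.27 to -1.64. Nell2, a secreted glycoprotein, was 0.47 ± 0.11 lower, and no high line reached the median of the low lines. Efna5, a membrane-bound ligand of Eph receptors, and Gnaq, the alpha subunit of a G protein, were lower by 0.65 ± 0.17 and 0.53 ± 0.14. All 7 probe sets of Gnaq had the same sign, whereas 2 brighter probe sets of Pex19 differed by -0.06 and -0.12 against -0.62 for the one with the smallest p.

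Since most high lines came from metastases and most low lines from primary tumours, the site was entered as a covariate and the sites were taken apart. With the site in the model Camk2b, Stox2 and Igfbp4 differed by 0.80, 2.04 and -1.15. In primary tumour lines alone the difference of Camk2b was 0.90 and in metastasis lines 0.69, and for Igfbp4 it was -1.33 and -0.94. Ndufb6 differed by 0.44 in primary tumour lines and by 0.66 in metastasis lines, so these genes kept their direction at both sites.

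Ifi202b had a large difference between the groups, and sister lines of a mouse were either all on or all off. This gene encodes an interferon-inducible DNA-binding protein. Its signal was 2.73, 7.24 and 9.67 in the high lines and 2.39, 2.83 and 8.42 in the low lines, a difference of 3.05 ± 0.84. Lines with the gene on were at 6.05 or above, and lines with it off were at 2.94 or below. Sister lines could be compared only in the 5 of 14 mice that gave several lines. All 4 lines of mouse 15272 and both lines HEP-5123 and B-5123, all in the high group, were on. The low lines PPT-3250 (8.42) and PPT-17728 (7.64), each the only line of its mouse, were on as well. Both lines of mouse 5193 and all 4 lines of mouse 53631 were off, including their high lines ASC-5193 (2.73) and HEP2-53631 (2.92). The high line of these mice differed from its low sister lines by 0.17 and 0.02, and the difference within both mice was 0.08 ± 0.24.

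**Figure D1:**
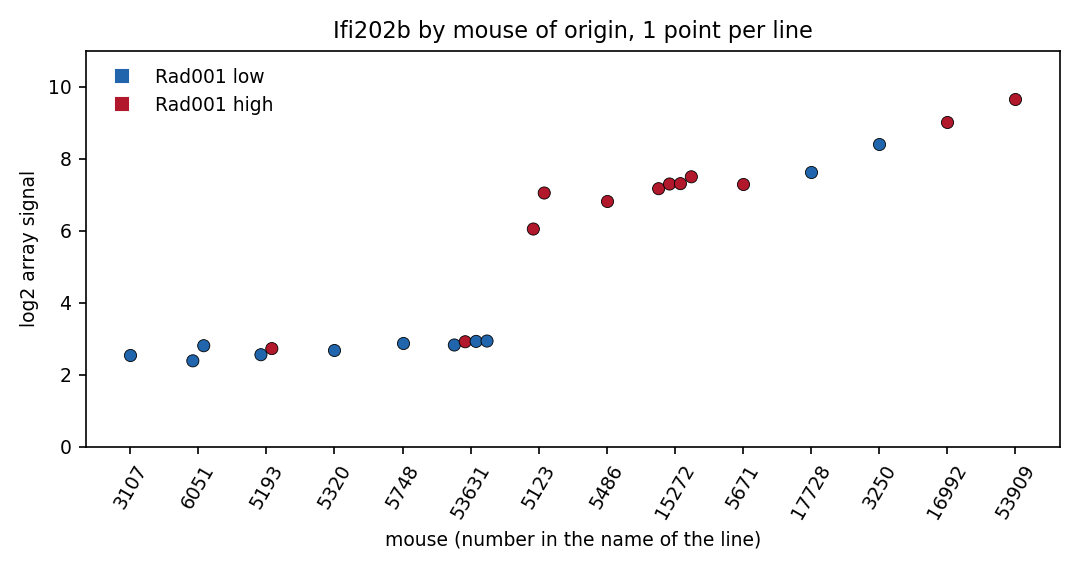
Log2 array signal of Ifi202b (y axis) in the 23 lines, grouped on the x axis by the mouse of origin, with lines of high Rad001 IC50 in red and of low Rad001 IC50 in blue. Lines of the same mouse sit together, either at 6.05 or above or at 2.94 or below, and the red points of mice 5193 and 53631 lie among the blue points of the same mouse.

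Without a cutoff, the signals were followed along the log2 Rad001 IC50, and the slope is the change in log2 signal for each doubling of the IC50. Mecom, Celf2, Fmn1 and Cavin2, at the head of this comparison, had lower signals at higher IC50. None of the 45037 probe sets passed (0%), with 13 at an adjusted p under 0.5, and the smallest adjusted p of 0.207 (limma) was shared by probe sets of Mecom, Celf2, Fmn1 and Cavin2. The 13 also held a probe set of 4931428F04Rik with a higher signal at higher IC50, at a slope of 0.32 ± 0.07. At an unadjusted p under 0.05, 516 of 18193 genes had a positive slope (2.84%) and 424 a negative slope (2.33%).

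Mecom encodes the zinc-finger transcription factor EVI1. Its signal was 5.11, 7.80 and 8.91 (lowest, median, highest) in the high lines and 8.18, 9.07 and 9.43 in the low lines. B-152727, which had the highest IC50, was lowest, ASC-5193 and LN1-15272 followed at 6.86 and 6.91, and HEP2-53631 was at the level of the low lines although its IC50 was the third highest. The slope was -0.71 ± 0.13, and -0.52 without B-152727. The other probe sets of the gene, with means of 3.88 and 1.90 over all lines, had slopes of 0.00 and -0.06.

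Celf2 encodes an RNA-binding protein that regulates splicing. It ran from 2.46 to 8.34 with a median of 7.57 in the high lines and from 7.04 to 9.04 with a median of 8.0 in the low lines. The lowest 3 lines, B-152727 (2.46), HEP2-53631 (5.66) and ASC-5193 (6.45), were the 3 lines with the highest IC50. B-5123 (6.83) also lay below every low line, and the remaining high lines overlapped with the low lines. The slope was -0.94 ± 0.17 and fell in size to -0.57 without B-152727. Further bright probe sets of Celf2 gave -0.87 and -1.02.

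Fmn1, a formin that assembles actin filaments, ran from 3.31 to 7.5 with a median of 5.50 in the high lines and from 5.75 to 7.99 with a median of 6.69 in the low lines. Of the 12 high lines, 8 lay below every low line, and ASC-53909 at 7.5 lay among the highest low lines. The slope was -0.85 ± 0.16. Cavin2, a coat protein of caveolae, the small pits of the plasma membrane, ran from 6.86 to 11.82 with a median of 9.52 in the high and from 9.42 to 11.87 with a median of 10.88 in the low lines. It was lowest in ASC-53909 (6.86), ASC-5193 (7.13) and HEP2-53631 (8.54), while PPT-16992 and HEP-5123 were as high as the low lines. Its slope was -0.91 ± 0.17, with -1.0 and -1.02 for 2 further probe sets.

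**Figure D2:**
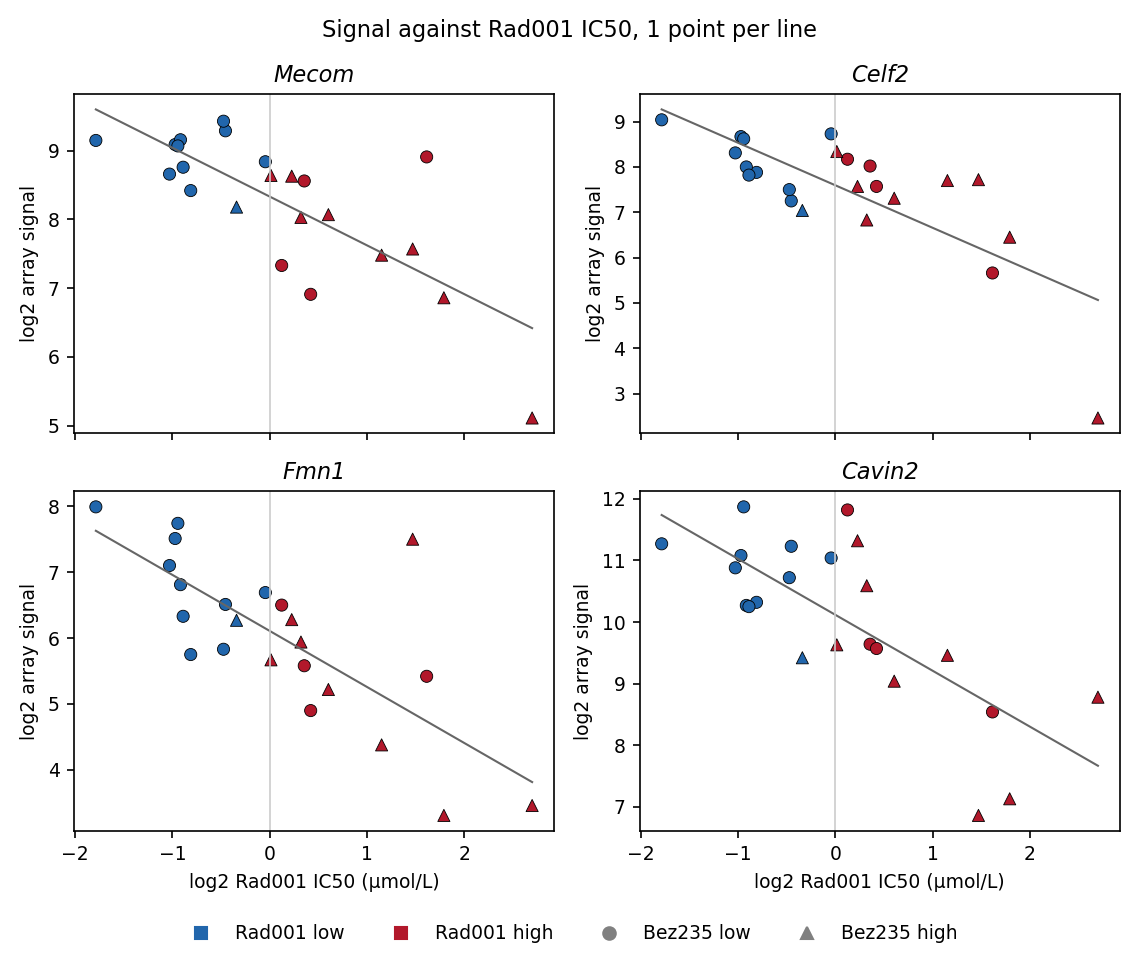
Log2 array signal (y axis) of Mecom, Celf2, Fmn1 and Cavin2 against the log2 Rad001 IC50 in µmol/L (x axis), 1 point per line, with the line of the limma slope and a vertical line at the cutoff of 1 µmol/L. Red marks the high and blue the low Rad001 group, and triangles mark lines with a high Bez235 IC50. All 4 slopes are negative, and for Mecom and Celf2 the line B-152727 at the far right lies well below all others.

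Which mouse was in the comparison changed these calls. Without the line of mouse 53909, 5 probe sets passed, 2 of Fmn1 and 3 of Celf2, with adjusted p-values of 0.000352 to 0.0261 in limma. Without the 4 lines of mouse 53631, the Mecom probe set passed with an adjusted p of 0.0187. Further down the order, Dusp5, a phosphatase that switches off ERK and is itself a target of ERK signalling, had a slope of -0.49 ± 0.12, and Eomes, a T-box transcription factor, had one of 0.67 ± 0.17. Eomes was highest in B-152727 (6.91), LN1-15272 (6.01) and PPT-15272 (5.88), 3 lines of the same mouse.

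The mTOR pathway itself was examined by its roles, from the drug's partner protein to the outputs. Over all genes, 9948 of 18193 were higher, 2.81% were higher and 1.43% lower at an unadjusted p under 0.05, and the median difference was 0.01. The counts of each list stand against these shares as a description without a test, and no gene passed after adjustment. The FKBP immunophilins held 13 measured genes, of which 0 reached that level. Fkbp1a, which encodes the protein that Rad001 needs for binding, was bright in all lines, at 11.03 to 12.16 in the high and 11.59 to 12.57 in the low lines, with a difference of -0.16 ± 0.13. Its 3 other bright probe sets differed by -0.16 to -0.29, and a dim one by 0.06.

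Of the 11 subunits and partners of the mTOR complexes, 6 were higher and 5 lower, with a median difference of 0.02 and 1 gene at an unadjusted p under 0.05. Mtor itself differed by 0.06 and Rptor, the subunit that defines complex 1, by 0.02. Mlst8, a subunit of both complexes, had the smallest p, with a median of 5.89 in the high (5.57 to 6.16) and 5.75 in the low lines (5.19 to 5.96). The difference was 0.27 ± 0.09, and 4 of 12 high lines lay above every low line.

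Of the inputs through TSC, Rheb and AMPK, 15 of 19 genes had a higher mean in the high group, next to 9948 of 18193 over all genes, with a median difference of 0.05. At an unadjusted p under 0.05, 2 of the 19 were higher. These were Sesn2 and Ddit4, a pair of genes induced by stress whose proteins hold mTOR complex 1 back. Sesn2 encodes sestrin 2, which senses leucine, and had a signal of 5.85, 6.35 and 6.68 in the high and 5.38, 5.82 and 6.43 in the low lines. All 12 high lines lay above the median of the low lines, 3 above every low line, and the difference was 0.44 ± 0.11, with 0.65 for a second probe set. Ddit4, also called REDD1, acts through TSC and had a signal of 8.24, 9.55 and 10.33 in the high and 6.45, 7.95 and 9.95 in the low lines. All 12 high lines again lay above the low median, 7 of 11 low lines lay below every high line, and PPT-53631 and PPT-5748 were the low lines with high signals (9.95 and 9.93). The difference was 1.14 ± 0.36, and within mice it was 1.00 ± 0.79. In mouse 53631 the high line (9.81) lay inside the range of its low sister lines (7.82 to 9.95), and in mouse 5193 the lines were at 8.34 (high) and 7.75. In primary tumour and metastasis lines taken apart the difference was 1.51 and 0.93 for Ddit4 and 0.64 and 0.23 for Sesn2. Sesn3 and Tsc2 were 0.53 and 0.28 higher without reaching that level, and Tsc1 differed by -0.09.

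The 250 bases before the annotated start of Sesn2, Ddit4 and Cavin2 (GRCm38.p6, RefSeq) are shown because the first 2 are the pathway inhibitors with higher signals in the high group and the last had a slope of the opposite sign. They lie on the minus strand at chr4:132510457-132510706, on the minus strand at chr10:59951771-59952020 and on the plus strand at chr1:51288876-51289125. Capitals mark the GC box GGGCGG, searched on both strands, so that CCGCCC is the same motif on the other strand.
Sesn2: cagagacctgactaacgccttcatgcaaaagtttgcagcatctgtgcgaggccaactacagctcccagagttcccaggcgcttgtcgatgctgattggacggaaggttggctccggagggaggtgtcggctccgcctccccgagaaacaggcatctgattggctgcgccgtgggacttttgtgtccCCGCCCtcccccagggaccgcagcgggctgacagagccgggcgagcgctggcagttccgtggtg
Ddit4: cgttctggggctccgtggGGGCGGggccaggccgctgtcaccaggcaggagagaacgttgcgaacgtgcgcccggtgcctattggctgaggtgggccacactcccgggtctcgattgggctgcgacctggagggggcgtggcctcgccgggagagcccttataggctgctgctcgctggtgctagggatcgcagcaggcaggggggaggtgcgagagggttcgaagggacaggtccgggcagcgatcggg
Cavin2: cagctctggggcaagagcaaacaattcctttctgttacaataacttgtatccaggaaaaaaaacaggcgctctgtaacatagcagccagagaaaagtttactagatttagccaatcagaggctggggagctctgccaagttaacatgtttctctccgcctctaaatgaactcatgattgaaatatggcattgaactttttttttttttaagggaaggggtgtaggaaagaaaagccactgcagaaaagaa
The motif occurred once each before Sesn2 and Ddit4 and not before Cavin2, and 32.7% of 32851 mouse promoter windows of this length held it. The windows of Sesn2 and Ddit4 held 18 and 22 CpG dinucleotides and that of Cavin2 held 2, next to a median of 6. A match describes the letters and was not tested for binding.

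Downstream of mTOR complex 1, the 19 measured translation genes had a median difference of 0.05, with 1 higher and 1 lower at an unadjusted p under 0.05. Rps6, the ribosomal protein whose phosphorylation reports the activity of the complex, was lower by 0.52 ± 0.22, at 7.13 to 9.46 in the high and 8.63 to 9.76 in the low lines, with 5 high lines below every low line. Eef2, the elongation factor that moves the ribosome, was 0.16 ± 0.08 higher. The repressor Eif4ebp1 and the cap-binding factor Eif4e differed by 0.06 and 0.09. Of 23 amino acid and lysosomal inputs 0 reached an unadjusted p under 0.05.

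Upstream, the 19 genes of class I PI3K and AKT signalling had a median difference of 0.01, with 2 higher at an unadjusted p under 0.05. Pdpk1, the kinase that activates AKT, was 0.16 ± 0.07 higher, and Pik3r2, a regulatory subunit of PI3K, was 0.23 ± 0.11 higher with a slope of 0.15 ± 0.05. Of 16 receptors and adaptors of the insulin and IGF system, Igf2 was 1.16 ± 0.54 higher and Irs2, an adaptor of the receptors, was 0.56 ± 0.21 lower. Igf2 was highest in the sister lines HEP-5123 and B-5123 (8.31 and 8.61), and without that pair the difference was 0.54. Igfbp4 of the same list is described above.

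**Figure D3:**
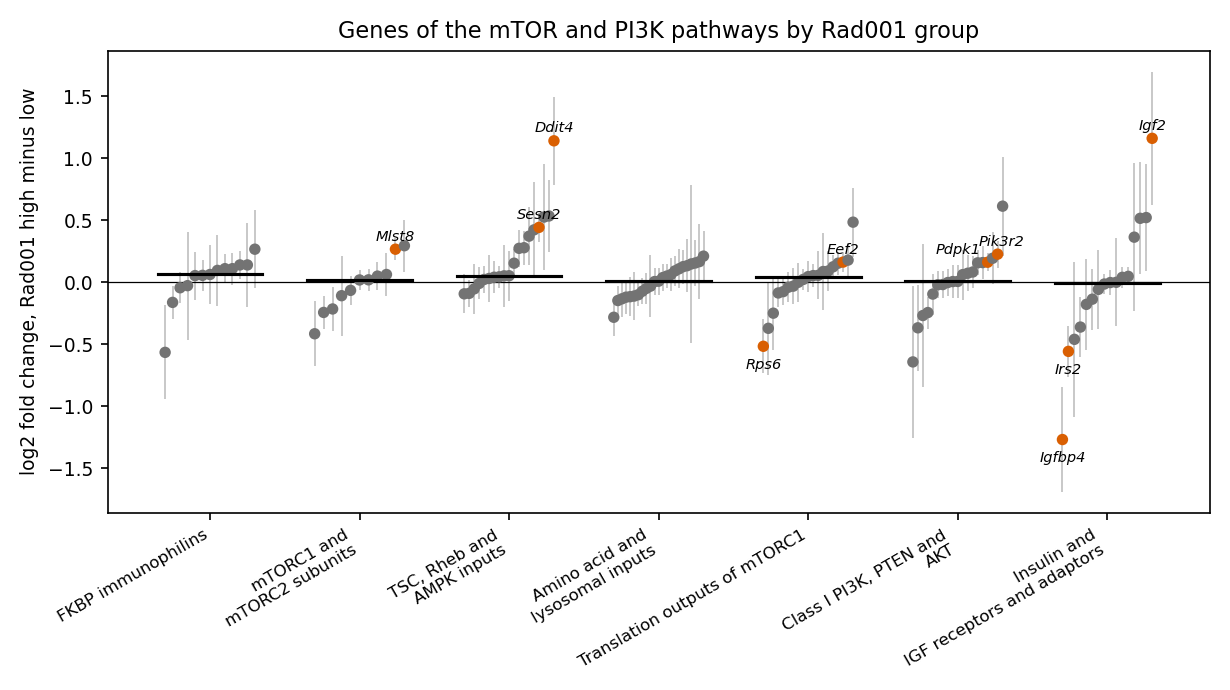
Log2 fold change between the high and low Rad001 groups (y axis) for each measured gene of 7 lists of the mTOR and PI3K pathways (x axis), with bars of 1 standard error from limma and a black line at the median of the list. Orange points have an unadjusted p under 0.05 and are named, and Ddit4 at 1.14 and Igf2 at 1.16 lie highest.

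Outside the pathway, the p53 targets had the highest median difference of the gene lists examined, 0.60 over 14 genes against 0.01 over all genes. Of these, 12 were higher, next to 9948 of 18193 over all genes, and 4 were higher at an unadjusted p under 0.05, against 2.81% of all genes. The list was not tested. Cdkn1a, the cell cycle inhibitor p21, had a signal of 7.45, 10.32 and 11.39 in the high and 6.20, 9.09 and 10.58 in the low lines. The 5 lowest signals were all in lines with a listed Trp53 R172H allele (PPT-5193, PPT-3107, PPT-6051, B-6051 and PPT-5486), while ASC-5193, which shares the allele, was at 9.68. The difference in Cdkn1a was 1.45 ± 0.52, and 0.69 once the 6 lines listed with R172H were left out. Phlda3, an inhibitor of AKT, Zmat3, an RNA-binding protein, and Mdm2, which degrades p53, were higher by 0.66, 0.78 and 0.67, and by 0.66, 0.55 and 0.42 without those lines. The genotype of 10 lines was not given, and the part of the Trp53 allele in these differences was not tested further. Along the IC50 the median slope of this list was 0.09, and 0 of its genes reached an unadjusted p under 0.05.

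Genes of the interferon response had the highest median slope, 0.29 over 15 genes. Of these, 14 had a positive slope, next to 9206 of 18193 over all genes, and 3 a positive slope at an unadjusted p under 0.05, against 2.84% of all genes. This list was not tested either. Cxcl10, a chemokine, had a slope of 0.88 ± 0.25 and was at 10.53 in ASC-5193 against at most 6.57 elsewhere. Rsad2, the antiviral protein viperin, and Bst2, which tethers viruses to the cell, had slopes of 0.39 and 0.33. Without ASC-5193 the slopes of Cxcl10, Rsad2 and Bst2 were 0.55, 0.17 and 0.20.

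Other lists held few genes at an unadjusted p under 0.05. Over all genes, 2.81% were higher and 1.43% lower at that level between the groups, and 2.33% had a negative slope. Of 23 lysosome and autophagy genes, 3 were higher at that level. Atp6v0d1 of the lysosomal proton pump, the protease Ctsd and the autophagy gene Atg5 were higher by 0.42, 0.29 and 0.23. Of 22 genes of glycolysis and hypoxia, 2 were higher at that level. The glucose transporter Slc2a1 and the glycolytic regulator Pfkfb4 were 0.42 and 0.76 higher. Pfkfb4 was highest in the sister lines PPT-15272, LN1-15272 and PUL-15272 (6.98 to 7.67). It ran from 4.34 to 6.07 in the other high lines and from 4.31 to 6.06 in the low lines. Spry1, a feedback inhibitor of ERK signalling, was 0.93 ± 0.41 higher. Its highest signals were those of the sister lines of mouse 15272 (8.94 to 9.8). The other high lines ran from 6.45 to 8.14 and the low lines from 5.38 to 7.96. Abcb1a, a drug efflux pump, had a slope of -0.50 ± 0.23 and thus lower signals at higher IC50, and 10 of 12 efflux and drug-metabolism genes had a negative slope, next to 8987 of 18193 over all genes.

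Of 18 measured genes of mitosis and replication 0 reached an unadjusted p under 0.05 in either comparison, as was the case for 20 mesenchymal, 9 leukocyte and 7 endothelial markers. Over all genes the shares at that level were 2.81% higher and 1.43% lower between the groups. Along the IC50 they were 2.84% with a positive and 2.33% with a negative slope. Slopes were negative for 15 of the 18 genes of mitosis and replication, against 8987 of 18193 over all genes. In the epithelial list, 2 of 20 genes were higher in the high group at an unadjusted p under 0.05, while the list's median was -0.08. These were St14, a surface protease, and Cldn4, a tight junction protein, which were 1.29 ± 0.61 and 1.57 ± 0.76 higher. Their SDs were 1.98 and 2.53 in the high lines and 0.76 for both in the low lines. Both were highest in PPT-15272 (9.56 and 10.3), and for Cldn4 2 high lines lay below every low line. Cdkn1b, which encodes p27, differed by 0.08 ± 0.19 between the groups and by -0.21 by a second probe set, and Skp2, which targets p27 for degradation, by -0.21 ± 0.26.

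Bez235 placed 18 lines on the same side as Rad001 with its cutoff of 10 nmol/L, 8 high and 10 low for both drugs. The discordant lines were 5. PPT-16992, PPT-5486, LN1-15272 and HEP2-53631 were high for Rad001 and low for Bez235, and PPT-5748 was low for Rad001 and high for Bez235. HEP2-53631 was the most discordant, with the third highest Rad001 IC50 and the sixth lowest Bez235 IC50 of the 23 lines.

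Efemp1, a fibulin of the extracellular matrix, was picked in the study for its difference between Bez235 groups on these same arrays, so its values by Bez235 are a description and no independent evidence. Its signal was 10.37 ± 0.70 (SD, n = 10) in lines low for both drugs and 5.95 ± 2.84 (SD, n = 8) in lines high for both. The 4 lines high for Rad001 alone were at 9.59 ± 1.12 (SD, n = 4) and ran from 8.47 to 10.67, overlapping with the first group. PPT-5748, high for Bez235 alone, had the lowest signal of all 23 lines (1.72). Between the Rad001 groups the difference was -2.41 ± 1.12, and with the Bez235 group in the model it was 0.41 ± 0.99. The slope on Rad001 was likewise -1.63 ± 0.47 alone and -0.06 ± 0.55 with the Bez235 IC50 in the model. Among the other fibulins, Fbln2 had a slope of -0.71 ± 0.32, with a signal of 3.25 in 1 high line.

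Mecom, Fmn1, Cavin2 and Celf2 were named for their Rad001 slope and Igfbp4 for its group difference in the same lines, so their values are likewise a description and no contrast with Efemp1. For Mecom the 4 lines high for Rad001 alone had a signal of 7.93 ± 0.96 (SD, n = 4), against 8.99 ± 0.31 in lines low for both and 7.55 ± 1.15 in lines high for both. For Igfbp4 the same classes had 5.97 ± 0.57, 7.12 ± 0.51 and 5.75 ± 1.18. PPT-5748, high for Bez235 alone, lay below every line low for both drugs in Mecom (8.18 against 8.42 to 9.43), Igfbp4 (6.26 against 6.46 to 8.01), Cavin2 (9.42 against 10.25 to 11.87) and Celf2 (7.04 against 7.25 to 9.04), and inside their range in Fmn1 (6.27). The slope on Rad001 with Bez235 in the model was -0.47 ± 0.18 for Mecom, -0.69 ± 0.23 for Fmn1, -0.81 ± 0.26 for Cavin2 and -0.96 ± 0.25 for Celf2. In these models 0 of 45037 probe sets passed for the groups and for the slopes (0% in both), with 1880 and 1913 at an unadjusted p under 0.05, and the smallest adjusted p-values in limma were 0.9998 and 0.778.

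Given the Bez235 group, Ndufb6, Cpt2 and Nudt2 had the smallest p-values for the Rad001 group beside dim probe sets of Chchd7 and Fut9. Ndufb6 was higher by 0.76 ± 0.18, Cpt2, which releases fatty acids from carnitine for oxidation, by 0.74 ± 0.18, and Nudt2, a hydrolase of dinucleoside polyphosphates, by 0.83 ± 0.21. PPT-5748 had the lowest signal of all 23 lines in each of these genes, at 8.99, 6.68 and 7.24. Cpt2 was at 8.18 ± 0.50 (SD, n = 4) in lines high for Rad001 alone and at 7.5 ± 0.31 and 7.64 ± 0.37 in lines low and high for both. Without PPT-5748 the differences were 0.51, 0.68 and 0.52. Along the IC50 values of both drugs, the smallest p-values belonged to Surf2, a nucleolar protein, Hr, a transcriptional corepressor, Dph7 of diphthamide synthesis, and Hmga2, a chromatin protein of embryonic and tumour cells, with slopes on Rad001 of -0.41 ± 0.08, 0.48 ± 0.10, -0.28 ± 0.06 and -0.69 ± 0.15. HEP2-53631, the most discordant line, was the lowest of all 23 lines in Surf2 (5.85), Dph7 (6.4) and Hmga2 (8.58) and the highest in Hr (5.24). Without it the slopes were -0.34, 0.45, -0.28 and -0.64, and 1134 probe sets in place of 1913 had an unadjusted p under 0.05. Other probe sets had slopes on Rad001 alone of -0.04 for Hr and 0.03 for Dph7 (dim), against 0.27 and -0.10 for the ones used.

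**Figure D4:**
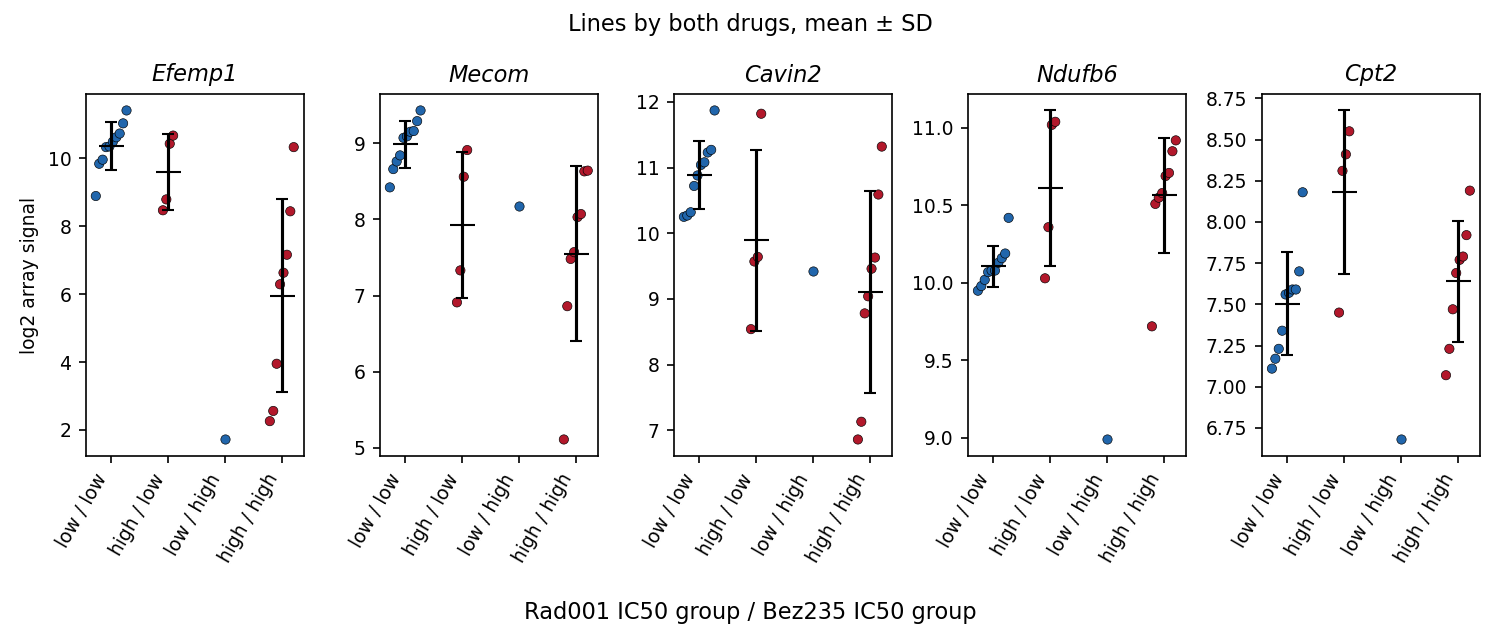
Log2 array signal (y axes) of Efemp1, Mecom, Cavin2, Ndufb6 and Cpt2 in the lines grouped by Rad001 and Bez235 IC50 (x axes, Rad001 group first), with red for high and blue for low Rad001 IC50 and black bars for mean ± SD where a class held more than 1 line. In Efemp1 the lines high for Rad001 alone lie at 8.47 to 10.67 and PPT-5748, high for Bez235 alone, at 1.72, and in Ndufb6 and Cpt2 PPT-5748 is the lowest line.

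Sister lines of the same mouse share their host. The comparison within mice rests on mouse 5193, with ASC-5193 (high) and PPT-5193 (low), and on mouse 53631, with HEP2-53631 (high) and PPT-53631, PUL3-53631 and B-53631 (low). ASC-5193 was taken as a metastasis line and was high for Bez235, while PPT-5193 was a primary tumour line and low for Bez235. In mouse 5193 the Rad001 group therefore cannot be told apart from the site or the Bez235 group. HEP2-53631 was also taken as a metastasis line, as were PUL3-53631 and B-53631, while PPT-53631 was primary. With the mouse as a fixed block 11 of 45037 probe sets passed (0.0244%), all higher in the high line, for 10 genes. The spread came from the lines of 5 mice, and in a fit of these 2 mice alone 0 passed, with a smallest adjusted p of 0.0897 in limma and 3907 probe sets at an unadjusted p under 0.05.

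Casp4, Mndal and Blnk have known roles in immune cells. Casp4, the inflammatory caspase that senses lipopolysaccharide, was at 7.27 in ASC-5193 and 3.86 in PPT-5193, and at 6.54 in HEP2-53631 against 2.73 to 3.30 in its 3 sister lines. The fit gave 3.48 ± 0.42 (limma, adjusted p = 0.0252). Mndal, an interferon-inducible gene of the same family as Ifi202b, had differences of 5.52 and 3.66 in the 2 mice by one probe set and of 2.83 and 2.03 by another. Near-identical members of that family may share probes, which was not tested. The Ifi202b probe set itself was at 2.73 in ASC-5193 and 2.92 in HEP2-53631. Blnk, an adaptor of B cell receptor signalling, was at 6.77 against 2.78 and at 5.78 against 2.67 to 2.86, with a fit of 3.40 ± 0.34 (limma, adjusted p = 0.0116).

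Other members signal or act elsewhere in the cell. Mcf2l, a guanine nucleotide exchange factor, had the smallest adjusted p (0.00273, limma), with 5.70 against 3.81 in mouse 5193 and 5.65 against 3.21 to 3.42 in mouse 53631. Wnt4, a secreted Wnt ligand, differed by 1.11 and 1.38, and Atp6v0d1, the subunit of the lysosomal proton pump named above, by 1.52 and 1.23. Hdac9, a histone deacetylase, Cbr2, a carbonyl reductase, Calcrl, the receptor of adrenomedullin and CGRP, and Prl6a1 of the prolactin family passed with fits of 2.47, 2.37, 1.62 and 1.51. Over all lines none of these genes separated the groups fully. Blnk reached 8.68 in a low line, and Calcrl and Hdac9 reached 7.10 and 6.71 in low lines. The group differences of Calcrl and Hdac9 were -0.81 and -0.16, with 0.01 for a dim second probe set of Calcrl. The other genes that passed were higher in the high group, by 0.22 (Prl6a1) to 0.69 (Mndal). A second probe set of Mndal differed by 1.71.

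Cavin2 missed the threshold within mice, at -2.92 ± 0.42 (limma, adjusted p = 0.0578), with 7.13 against 11.04 in mouse 5193 and 8.54 against 10.25 to 11.27 in mouse 53631. Fmn1 and Igfbp4 were also lower in both high lines, by 3.38 and 1.72 and by 2.86 and 0.69. Mecom and Efemp1 differed in mouse 5193 (-1.98 and -7.58) and hardly in mouse 53631 (0.05 and -0.32), a contrast between mice that was not tested. In mouse 5193, 1932 probe sets differed by more than 2, counted for 1 line against 1 line. In mouse 53631 there were 372, counted for 1 line against the mean of 3, so these counts are not like for like. Krt8 was at 13.23 in PPT-5193 and 3.44 in ASC-5193. Of the probe sets over 2 in both mice, 63 had the same sign and 89 the opposite sign.

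**Figure D5:**
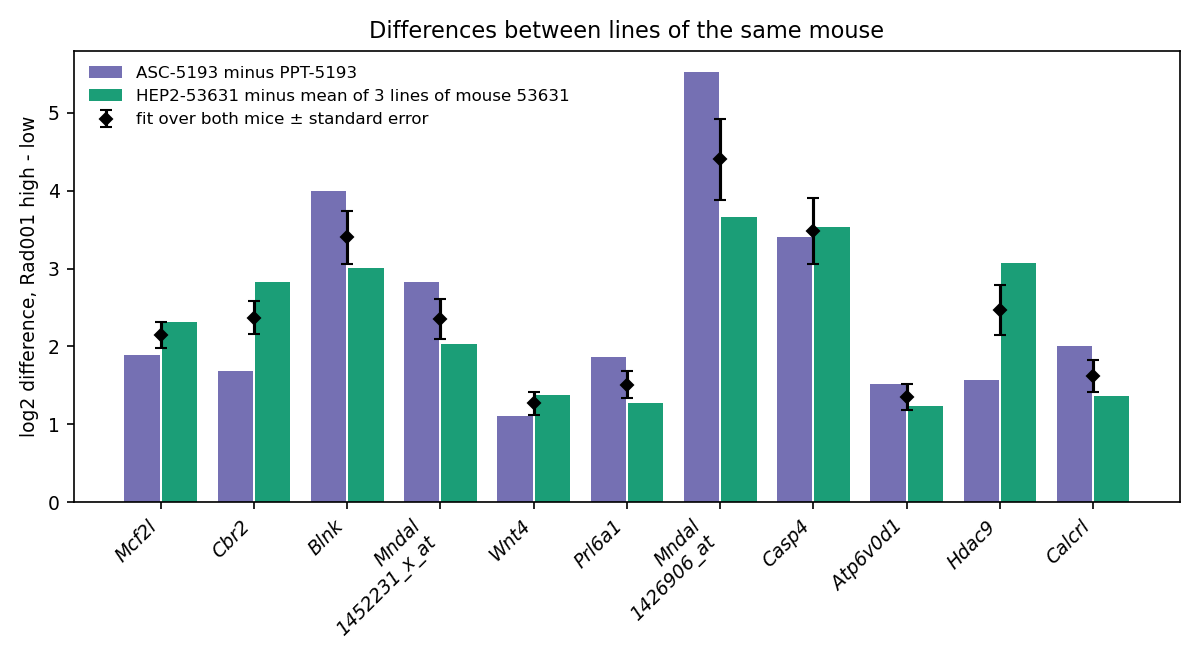
Difference on the log2 scale between lines of high and low Rad001 IC50 from the same mouse (y axis) for the 11 probe sets that passed (x axis, the 2 of Mndal with their names). Violet bars are ASC-5193 minus PPT-5193, green bars HEP2-53631 minus the mean of its 3 sister lines, and black points the limma fit with 1 standard error. All 22 bars lie above 0, from 1.11 to 5.52.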

How the data were processed

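RNA of 23 murine PDAC lines was hybridised to GeneChip Mouse Genome 430 2.0 arrays, 1 per line. The authors deposited log2 values per probe set, background-corrected and normalized between arrays. The supplementary methods name VSN and the submitters' processing notes RMA, with versions not given in the sources used here, so the method used stays unknown. The log2 values were used as they are, without a pseudocount or a filter. After 64 control probe sets were left out, 45037 were tested, and 34945 of these had 1 gene symbol, 932 several and 9160 none. Symbols came from the platform annotation. A gene is given by its brightest probe set, or by the one with the smallest p where it was named for that, and other probe sets are given for part of the genes.

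Lines were grouped by the Rad001 IC50 list in the study's supplement, matched by the name in each label. Differences are high minus low. limma 3.58.1 in R 4.3.3 (lmFit, eBayes) was fitted over all probe sets with Benjamini-Hochberg adjustment and a threshold of 0.05, for the group, for the log2 IC50, for both given Bez235, and within mice (fixed mouse effect). The mouse was read from the number in the line's name. Deviations from the group means went together in lines of the same mouse (median correlation 0.337 over 15 pairs, the lowest -0.0514, against -0.0548 over 238 other pairs). The group fit, the slope fit and the estimate of the correlation within mice were tested on simulated data. For the group and slope fits the simulated lines were independent, with large SDs capped. The fits given Bez235 and within mice were not simulated. The members, the 28 gene lists with 453 entries (421 measured) and the genes named were chosen with earlier results of these data known. The rule for names takes the genes the study names, the smallest p-values of each fit and up to 4 members of each list, and the text prints a part of them. Lists were described by counts and medians. Alternatives chosen after seeing the data left out ASC-5193, it and B-152727, B-152727 alone, PPT-5748, HEP2-53631 or the lines listed with R172H, or split the lines by site. Arrays give no read depth, and their number limits the precision. Tables were computed with R and Python 3.11.15, and figures with matplotlib 3.10.9.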

Additional observations from a re-analysis of the deposited data

How the results depend on the processing

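The groups gave 0 passing probe sets under every alternative run other than the replicate block by mouse (fixed), which gave 11, the comparison within mice. The methods' t-test also gave 0 after adjustment, with 1932 probe sets at an unadjusted p under 0.05. Along the log2 IC50 the fixed replicate block gave 2 passing probe sets (Car5b and Neto2), and leaving out 1 mouse at a time gave 0 to 5. The 2 mice alone gave 0 in place of 11 within mice. A random block by mouse had correlations of 0.287 to 0.323 between sister lines and changed no call. Counts at an unadjusted p under 0.05 moved by over 1.5 times from 1894 for the groups to 4956 with the fixed block, 1043 with 1 mean per mouse and group and 897 with bright probe sets only, and from 2212 for the slopes to 5737, 3381 (random block) and 1139 (bright probe sets). Given Bez235, the slopes moved from 1913 to 3232 with the random block and to 1134 without HEP2-53631. The cause of these changes was not tested, apart from fewer probe sets or values entering the bright, per-mouse and left-out settings. Signs turned for Cdkn1b, whose difference was -0.041 with the random block, -0.682 with the fixed block, -0.049 with 1 mean per mouse and group, -0.029 in lines whose interval leaves out the cutoff and -0.006 in primary tumour lines. Its slope was -0.062 with the fixed block, -0.056 without B-152727 and -0.047 to 0.14 without 1 mouse at a time. With the fixed block the group differences were 0.12 for Gnaq, -0.12 for Eef2, 0.23 for Irs2, -0.022 for Igf2, -0.08 for Mdm2, -0.54 for St14 and -0.65 for Cldn4, and Ctsd was -0.068 in metastasis lines alone. The interaction of Rad001 group and site gave 0 passing probe sets, 1154 at an unadjusted p under 0.05 and a smallest adjusted p of 1. Quantile normalization and centring shifted the median of all probe sets by under 0.1.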
